A study of Mus musculus with 6 samples.

Results

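The rescue of Irak4 was compared with the wild-type line in KP2 cells, a mouse pancreatic cancer line on the C57BL/6J background derived from a KPC mouse (a genetically engineered model of pancreatic cancer). The comparison took 4 of the 6 RNA-seq libraries of the study by their titles, 2 titled wild type and 2 titled Irak4 knockout with rescue. The other 2, from the knockout without rescue, entered the fit and are set beside the result. The wild-type cells carried no edit of Irak4 in the labels. The knockout was made by lentiviral CRISPR infection with guide RNAs against Irak4, and the rescue cells carry that knockout and regained Irak4 by means that the labels do not describe. All 3 groups were grown in the same DMEM medium with serum and antibiotics, and no stimulus is named. The labels say neither whether a group is 1 clone, nor whether the wild-type cells received a vector, nor whether the 2 libraries of a group came from separate cultures, so the spread behind each p-value may be technical.

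IRAK4 is the kinase recruited by the adaptor MyD88 to Toll-like receptors and to receptors of the interleukin-1 family. It activates IRAK1 and TRAF6, and the signal reaches the IKK complex, which frees NF-kB to induce chemokines, cytokines and its own inhibitors. Interferon signalling is a separate route, in which JAK kinases activate transcription factors of the STAT family, which induce antiviral and antigen presentation genes. In pancreatic cancer cells NF-kB output is known for its part in inflammation and in a dense, hyaluronan-rich stroma.

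The libraries held 8880121 and 10615611 counts in wild type, 11505983 and 8325604 in the knockout, and 7836296 and 7605328 in the rescue. Levels below are TMM-normalised CPM, a gene's count scaled to the effective size of its library, given for libraries 1 and 2 of a group in that order, and a log2 fold change is rescue over wild type unless another pair is named. A gene was called, and is said to be higher or lower, to have risen or fallen, where the adjusted p of edgeR's quasi-likelihood test was under 0.05. For every gene named as called, the 2 rescue libraries lay outside the range of the 2 wild-type libraries. The rescue libraries varied most between themselves, with a biological coefficient of variation of 10.5% against 5.07% in wild type and 6.08% in the knockout. Of 8 pancreatic ductal or epithelial markers, Krt8, Krt18, Krt19, Sox9 and Cdh1 were abundant in every library, while Krt7 was low and Epcam had 1 count over all 6 libraries. The sum over the 8 was 6990.0 and 6677 CPM in wild type and 4727 and 5597 in the rescue. Leukocyte markers (7 genes, among them Ptprc and Cd3e) summed to at most 0.501 CPM in any library, 4 islet markers were at 0 in all, and of the 6 fibroblast markers Dcn and Lum were at 0 in all. The fibroblast markers summed to 13.2 and 12.5 CPM in wild type and 16.7 and 22.4 in the rescue, mostly from Col1a1, which was not called. Acinar markers summed to 1.90 and 1.95 CPM in wild type and 3.68 and 3.46 in the rescue, with Cpa1 and Amy2a5 at 0. Endothelial markers summed to 4.63 and 5.37 CPM in wild type and 38.0 and 14.9 in the rescue, mostly from Cdh5 (2.97 and 3.62 CPM in wild type and 37.8 and 14.6 in the rescue), with Pecam1 at 0.254 CPM or less.

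Irak4 itself (ENSMUSG00000059883, GRCm38 chromosome 15, 94543643 to 94581815) had 37.9 and 37.6 CPM in wild type, 20.4 and 21.8 in the knockout and 492 and 211 in the rescue. Both rescue libraries were above the wild-type level, the first by more than the second, and both knockout libraries were below it. The log2 fold change was 3.22 (SE 0.30, adjusted p = 2.14e-05) against wild type and 4.06 (SE 0.32, adjusted p = 0.000235) against the knockout, while the knockout did not pass against wild type. This checks the labels and is not a finding, since the rescue was made to restore the gene. Reads of the endogenous gene, of any rescue construct and of Twf1, which overlaps Irak4 on the opposite strand, could not be told apart.

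Response elements known from the interferon, NF-kB and hypoxia pathways were looked for in promoters. The core of an interferon response element (GAAA, any 2 bases, GAAA, searched on both strands, overlapping matches allowed) stood in the promoters of 33 of 60 tested interferon-stimulated genes with a RefSeq promoter (55.0%), against 353 of 9495 tested genes (3.72%). A promoter here is the 250 bases before and 50 bases after the start of the gene, in RefSeq's annotation of GRCm38.p6. The core of a kappaB site, which NF-kB binds (GGGA, any 2 bases, TTCC, both strands), stood in 6 of 28 promoters of the NF-kB list (21.43%), against 161 of the 9495 (1.70%). The hypoxia response core (ACGTG, both strands) stood in 25 of 38 promoters of the hypoxia and glycolysis list (65.79%), against 2813 of the 9495 (29.63%). Among all genes called lower the kappaB core stood in 1.87% of promoters and the hypoxia core in 24.89%, and among all called higher the interferon core stood in 8.49%. Stretches of 5 promoters are printed 5′ to 3′ along the gene, with the matched core in capitals, for 3 interferon-stimulated genes that were higher in the rescue and 2 NF-kB genes that were lower. A match describes the letters and was not tested as a binding site.
Oas3, chr5:120777680-120777779, minus strand: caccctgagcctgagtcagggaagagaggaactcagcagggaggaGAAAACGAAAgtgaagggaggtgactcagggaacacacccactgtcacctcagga
Bst2, chr8:71537542-71537641, minus strand: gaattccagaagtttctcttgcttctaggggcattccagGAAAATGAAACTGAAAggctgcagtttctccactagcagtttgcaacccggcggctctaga
Isg15, chr4:156200830-156200929, minus strand: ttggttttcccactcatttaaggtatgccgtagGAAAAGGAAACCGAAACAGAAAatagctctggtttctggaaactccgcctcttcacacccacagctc
Cxcl1, chr5:90891130-90891229, plus strand: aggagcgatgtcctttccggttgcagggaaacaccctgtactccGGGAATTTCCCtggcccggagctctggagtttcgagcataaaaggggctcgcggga
Nfkbia, chr12:55492622-55492721, minus strand: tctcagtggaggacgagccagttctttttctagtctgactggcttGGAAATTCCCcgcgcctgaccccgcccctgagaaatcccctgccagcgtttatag
Bst2, Isg15 and Cxcl1 hold overlapping copies of the core, those of Cxcl1 on opposite strands, and the capitals run over all of them.

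With Irak4 mRNA above its wild-type level, the rescue still differed from wild type at 2744 of 12339 genes tested (22.2%). Of these, 1263 were higher (10.2%) and 1481 lower (12%), and 255 of the higher and 471 of the lower differed by at least 2-fold. The median log2 fold change over all genes tested was 0.01, and the median size of a called change was 0.565. The same rescue libraries against the knockout gave 1030 genes higher (8.35%) and 726 lower (5.88%). The 2 comparisons share the rescue libraries, and no overlap between them is read as a result. The counts depended on single libraries. Leaving out the first wild-type library gave 417 higher and 691 lower genes, and leaving out the second gave 552 and 776. Leaving out the second rescue library gave 1699 and 1953.

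**Figure D1:**
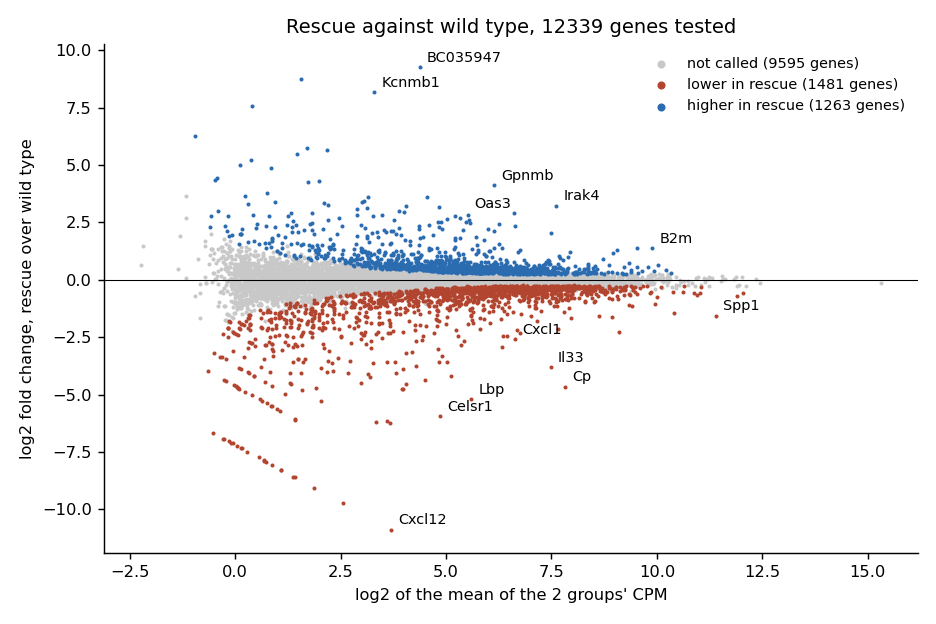
Each point is 1 of 12339 genes, with the log2 of the mean of the wild-type and rescue levels (CPM) on the x axis and edgeR's fitted log2 fold change, rescue over wild type, on the y axis. Blue points are the 1263 genes called higher and red points the 1481 called lower; the diagonal rows of red points at the lower left are genes with 0 or few counts in the rescue, whose fitted values are no measured folds.

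Target genes of NF-kB were lower in the rescue than in wild type. Of 34 tested genes of the NF-kB system 22 fell and none rose in this test, with a median log2 fold change of -0.50 against 0.01 over all genes. Some genes stand on more than 1 of the lists described. In bulk RNA, fewer cells that express a gene and less of its RNA per cell cannot be told apart. The knockout, which shares the wild-type libraries as its reference, had a median of -0.79 for the same genes. Among the subunits Relb, Nfkb1 and Nfkb2 fell (Relb not without the second wild-type library), Nfkb1 from 192 and 192 CPM to 144 and 141, while Rela and Rel did not pass. The inhibitors that NF-kB induces against itself fell in 6 of 9. Nfkbia, which encodes the inhibitor IkBa and whose kappaB core is printed above, had 146 and 134 CPM in wild type and 46.4 and 58.2 in the rescue, beside 41.4 and 40.2 in the knockout. Its log2 fold change was -1.42 (SE 0.11, adjusted p = 4.66e-06), and against the knockout it was 0.36 (SE 0.12, adjusted p = 0.0606), so the rescue libraries lay slightly above the knockout without passing the test. Nfkbie and Nfkbiz, 2 other members of the inhibitor family, fell by 1.42 and 0.93 on the log2 scale. Tnfaip3, which encodes the ubiquitin-editing brake A20, moved further towards wild type than Nfkbia. It had 193 and 191 CPM in wild type, 65.9 and 62.5 in the knockout and 97.0 and 144 in the rescue, and was called against both (log2 fold changes of -0.67 and 0.91). Its call against wild type was lost without the first wild-type library.

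Among the other targets 14 of 21 fell, 10 of them by at least 2-fold, and 9 fell when the second wild-type library was left out. Ptgs2, the inducible cyclooxygenase of prostaglandin synthesis, had 739.5 and 745 CPM in wild type and 187 and 297 in the rescue, a log2 fold change of -1.62 (SE 0.19, adjusted p = 0.000138). Ier3, an early-response gene of cell survival, went from 962 and 892 CPM to 345 and 503. In both genes the second rescue library was closer to wild type than the first, and neither reached it. Vcam1, an adhesion molecule for leukocytes, went from 134 and 144 CPM to 31.2 and 19.7, and Lcn2, the iron-binding lipocalin of epithelial inflammation, from 33.4 and 39.9 to 2.79 and 2.66. These 2 were lower than in the knockout as well, where Vcam1 had 39.7 and 46.5 CPM and Lcn2 4.26 and 11.1. Birc3, an inhibitor of apoptosis, fell by 1.24 on the log2 scale. Sod2, Cxcl10, Plau and Cd44 did not pass, with log2 fold changes of 0.14, 0.39, -0.13 and -0.23.

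Chemokine mRNAs were the group with the lowest median among those plotted by library, and no chemokine rose in this test. Of 14 tested 9 fell, each by at least 2-fold, and the median log2 fold change was -1.56 (-1.11 in the knockout against the same wild-type libraries). The median did not move when the 2 genes with 0 counts in 1 of the groups were set at their bound. For Cxcl12, the ligand of CXCR4, 484 counts in the wild-type libraries stood against 0 in the rescue, at least 133-fold lower (3 counts over the group as the floor), and 0 in the knockout. Cxcl5, a ligand of the neutrophil receptor CXCR2, had 23.3 and 24.8 CPM in wild type, 2.59 and 2.87 in the knockout and 0.634 and 0 in the rescue. Cxcl1, of the same receptor, had 156 and 183 CPM in wild type, 44.0 and 39.1 in the knockout and 24.0 and 32.6 in the rescue, a log2 fold change of -2.58 (SE 0.14, adjusted p = 2.84e-07) against wild type. Ccl2, which draws monocytes, had 67.3 and 78.4 CPM in wild type, 49.9 and 50.2 in the knockout and 33.2 and 22 in the rescue. In these 3 genes both rescue libraries were below both knockout libraries, and each was called against the knockout (adjusted p = 0.00876, 0.0275 and 0.00644). Cx3cl1, Cxcl16, Ccl9 and Ccl20 also fell, Ccl20 not without the second wild-type library. Ccl5 had 3.92 and 3.52 CPM in wild type and 3.68 and 5.59 in the rescue, which did not pass (adjusted p = 0.46).

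Interleukins and growth factors were more mixed, with 7 of 18 lower and 2 higher. Only 3 were lower without either 1 of the wild-type libraries, and none was higher. Il33, an alarmin of the interleukin-1 family, had 346 and 320.5 CPM in wild type, 17.5 and 18.9 in the knockout and 16.7 and 31.0 in the rescue (log2 fold change -3.81, SE 0.19, adjusted p = 1.46e-07). Csf3, the granulocyte growth factor, had 32.9 and 33.2 CPM in wild type, 4.18 and 3.90 in the knockout and 4.06 and 3.33 in the rescue, so rescue and knockout libraries lay together. Spp1, the matrix cytokine osteopontin, had 3809.6 and 4260.4 CPM in wild type, 1172 and 1386 in the knockout and 1418 and 1302 in the rescue. Lif, a ligand of the interleukin-6 family, lay nearer to wild type, with 207 and 189 CPM in wild type, 72.1 and 51.0 in the knockout and 101 and 168 in the rescue. It was called against the knockout (1.11, adjusted p = 0.00687) and not against wild type (-0.56, adjusted p = 0.0607), where it passed without the second rescue library. Gdf15, a stress cytokine, was higher at 31.8 and 36.9 CPM against 23.3 and 22.7, a call lost without either wild-type library. Il1b and Tnf, the classical products of NF-kB, had at most 1 count in any library and were not tested.

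**Figure D2:**
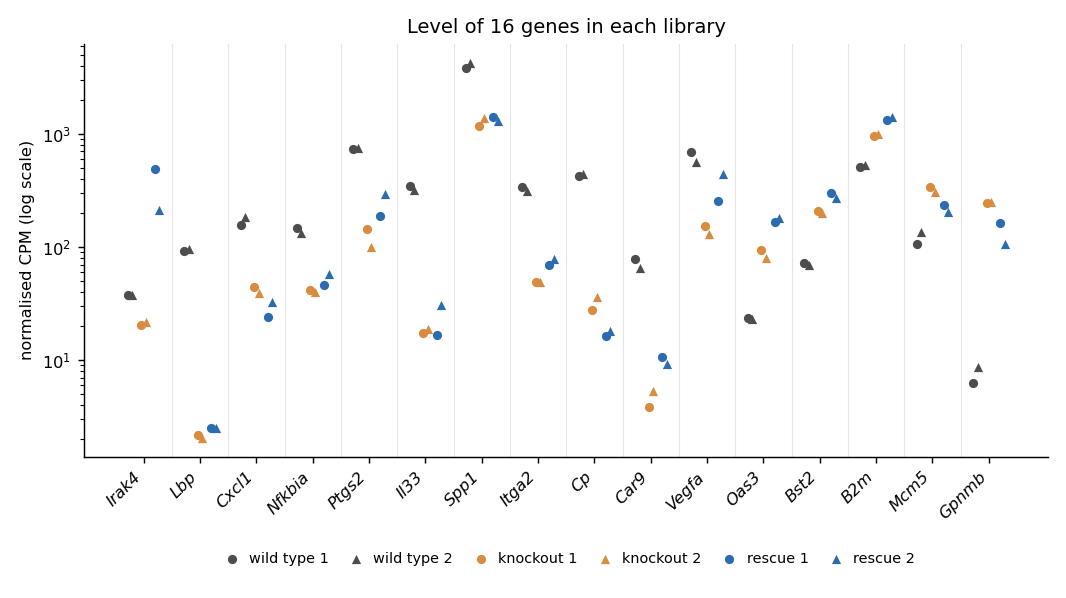
Normalised level (CPM, log scale) of 16 genes in each of the 6 libraries; circles are the first and triangles the second library of wild type (grey), knockout (orange) and rescue (blue). Irak4 is above wild type in both rescue libraries, at 492 and 211 CPM, while Lbp, Nfkbia, Spp1 and Itga2 in the rescue stay near the knockout and Cxcl1, Cp, Oas3, Bst2 and B2m lie beyond it.

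The pathway that feeds NF-kB from Toll-like and interleukin-1 receptors differed at few of its own genes. Of 34 tested 3 rose and 5 fell (8.82% and 14.71%, near the shares over all genes). The genes that rose were Irak4, Tlr3 and Myd88. Tlr3, the endosomal receptor of double-stranded RNA, had 14.8 and 15.4 CPM in wild type and 48.1 and 32.0 in the rescue (log2 fold change 1.40, SE 0.18, adjusted p = 0.000276). Myd88, the adaptor that binds IRAK4, went from 10.8 and 11.4 CPM to 17.0 and 14.6, below the 23.1 and 23.4 of the knockout, and its call was lost without any 1 of the libraries except the second of the rescue. Lbp, which encodes the protein that hands lipopolysaccharide to CD14, had the smallest adjusted p of the whole comparison together with Cp, at 93.0 and 95.6 CPM in wild type, 2.17 and 2.06 in the knockout and 2.54 and 2.53 in the rescue (log2 fold change -5.21, SE 0.14, adjusted p = 2.56e-09). Cd14 fell from 64.8 and 77.8 to 52.1 and 38.9 CPM, a level also below the knockout (70.1 and 75.3), and lost its call without the second wild-type library. Il18rap, Il1r1 and the kinase gene Ikbke fell by 0.72, 0.30 and 0.44 on the log2 scale, and the calls of Il1r1 and Ikbke were lost without several single libraries. Irak1, Traf6 and Ikbkb, the steps below IRAK4, did not pass, with log2 fold changes between -0.16 and -0.04. Without the second wild-type library 2 genes of the pathway were lower, and without the first 3.

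Several genes of prostaglandin synthesis and transport were lower besides Ptgs2. Of 10 tested 5 fell and 1 rose, and 3 fell without the second wild-type library. Pla2g4a, the phospholipase that releases arachidonic acid, had 105 and 117 CPM in wild type and 77.7 and 89.6 in the rescue, a call lost without the second wild-type library. Slco2a1, the transporter that takes prostaglandins up, fell from 10.7 and 12.7 to 1.39 and 2.13 CPM, where the knockout had 1.5 and 1.95. Abcc4, an exporter, fell from 94.4 and 91.0 to 57.2 and 47.4 CPM, below the knockout libraries at 70.2 and 92.1. The gene that rose was the receptor gene Ptger1, whose call was lost without either wild-type library or the first rescue library.

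Interferon-stimulated genes were higher in the rescue than in wild type. Of 78 tested 70 rose, 55 of them by at least 2-fold, and 1 fell, with a median log2 fold change of 1.56. The median of the same genes in the knockout against the same wild-type libraries was 1.22. Against the knockout itself the rescue was higher at 33 of the 78 genes and lower at none by this test. Among the signalling genes the transcription factors Stat2, Irf7 and Irf9 rose. Irf7, the amplifier of the interferon response, had 14.4 and 16.4 CPM in wild type, 42.5 and 42.4 in the knockout and 72.0 and 66.1 in the rescue (log2 fold change 2.16, SE 0.11, adjusted p = 2.07e-07). Irf9, which joins STAT2 in the factor that type I interferon activates, had 40.8 and 39.2 CPM in wild type, 69.5 and 68.6 in the knockout and 89.0 and 77.6 in the rescue, and it did not pass against the knockout. Of the receptors and kinases none rose by this test. Ifngr1 (not without the second wild-type library), Ifngr2 and Jak2 fell, Jak2 from 87.0 and 96.6 to 37.8 and 45.8 CPM, and Ifnar1 stood at 81.8 and 83.2 CPM in wild type and 83.6 and 81.8 in the rescue. Usp18, the protease that removes ISG15 and restrains the type I receptor, rose from 5.22 and 6.06 to 53.4 and 48.5 CPM. Ifnb1, which encodes interferon beta, had 0 counts in all 6 libraries, which allows up to 3 counts in a library.

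Sensors, effectors and GTPases of the interferon response moved the same way. Among the sensors of nucleic acids 12 of 14 rose. Ddx58, which encodes the RNA sensor RIG-I, had 58.5 and 67.9 CPM in wild type and 149.5 and 143 in the rescue (log2 fold change 1.21, SE 0.10, adjusted p = 1.16e-05), and Ifih1, which encodes MDA5, had 26.7 and 27.2 CPM in wild type and 61.9 and 54.7 in the rescue. Cgas, the sensor of cytosolic DNA, had 7.36 and 5.67 CPM in wild type and 15.9 and 13.9 in the rescue. Of the antiviral effectors 46 of 52 rose. Oas3, a synthetase that activates RNase L, had 23.5 and 23 CPM in wild type, 94.9 and 80.9 in the knockout and 166 and 179 in the rescue (log2 fold change 2.89, SE 0.11, adjusted p = 2.64e-08). Bst2, which tethers virions to the cell surface, had 72.1 and 69.5 CPM in wild type, 206 and 201 in the knockout and 303 and 272 in the rescue (log2 fold change 2.02, SE 0.09, adjusted p = 8.32e-08). Isg15, the ubiquitin-like modifier, had 9.86 and 8.99 CPM in wild type, 38.4 and 32.3 in the knockout and 73.3 and 55.7 in the rescue (log2 fold change 2.78, SE 0.16, adjusted p = 5.72e-07). In all 3, whose promoters are printed above, the libraries stepped up from wild type to knockout to rescue without overlap. Ifit1, Rsad2 and Cmpk2 rose by 2.33, 2.26 and 3.24 on the log2 scale, and neither Ifit1 nor Cmpk2 passed against the knockout. Ifitm2 was the exception that fell, from 267 and 275 to 186 and 203 CPM, while its neighbour Ifitm3 rose from 453 and 520.4 to 825 and 773. Isg20, an exonuclease, did not pass against wild type, with 105 and 87.6 CPM in wild type, 40.1 and 38.6 in the knockout and 61.9 and 96.8 in the rescue. All 12 tested interferon-inducible GTPases rose, among them Iigp1 from 1.66 and 1.07 to 18.8 and 14.3 CPM and Irgm1 from 57.0 and 65.9 to 180.2 and 126. Leaving out any 1 library left between 64 and 71 of the 78 genes higher. Values of near-identical family members (the Oas1, Ifit3, Apol9, Tgtp and Trim30 genes) are uncertain, since reads that fit several copies may have been split or dropped. Leukocyte markers were near 0 in every library, as given above.

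Genes of antigen presentation by MHC class I were higher as well. Of 21 tested genes 19 rose and none fell by this test, with a median log2 fold change of 0.84 (0.91 in the knockout), and the exceptions, H2-M3 and Canx, had 0.39 and 0.10. B2m, the light chain of every class I molecule, had 511 and 534 CPM in wild type, 962 and 1007 in the knockout and 1334 and 1404 in the rescue (log2 fold change 1.39, SE 0.09, adjusted p = 7.91e-07). Among the classical heavy chains of this strain, H2-K1 rose from 326 and 296 CPM to 695 and 825 and H2-D1 from 315 and 293 to 653 and 727, all above the knockout libraries, though reads shared among the class I genes make single chains uncertain. Nlrc5, the activator of class I transcription, rose from 27.2 and 25.9 to 111 and 117 CPM, where the knockout had 99.9 and 89.2. Of the genes that make and load peptides 12 of 13 rose, and 6 without the first wild-type library. Tap1, one chain of the peptide transporter, had 13.2 and 13.3 CPM in wild type, 47.6 and 37.0 in the knockout and 71.3 and 88.4 in the rescue, and the immunoproteasome gene Psmb8 3.32 and 4.01 CPM in wild type, 18 and 16.4 in the knockout and 27.8 and 29.4 in the rescue. Psmb9 overlaps Tap1 on the opposite strand, and its rise (3.38) is uncertain for that reason. None of the 7 class II genes on the list was abundant enough to be tested, with at most 7 counts of any of them in a library.

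Ligands of immune checkpoints were not part of that rise. Of 12 tested 5 fell and 1, Lgals9, rose, a call lost without either wild-type library or the first of the rescue. Cd274, which encodes PD-L1 and is itself inducible by interferon, had 6.17 and 7.52 CPM in wild type and 6.59 and 4.53 in the rescue, a log2 fold change of -0.30 (SE 0.25, adjusted p = 0.417) that did not pass. Cd47, the signal against phagocytosis, fell from 280.2 and 261 to 166 and 191 CPM and Vtcn1, which encodes B7-H4, from 7.24 and 6.94 to 1.52 and 1.73. Nectin2, a ligand of TIGIT, fell from 71.4 and 70.4 to 37.8 and 44.2 CPM and stood above the knockout (25.7 and 23.4). Nt5e, which encodes the adenosine-forming enzyme CD73, fell from 4.51 and 5.57 to 0.761 and 1.33 CPM.

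**Figure D3:**
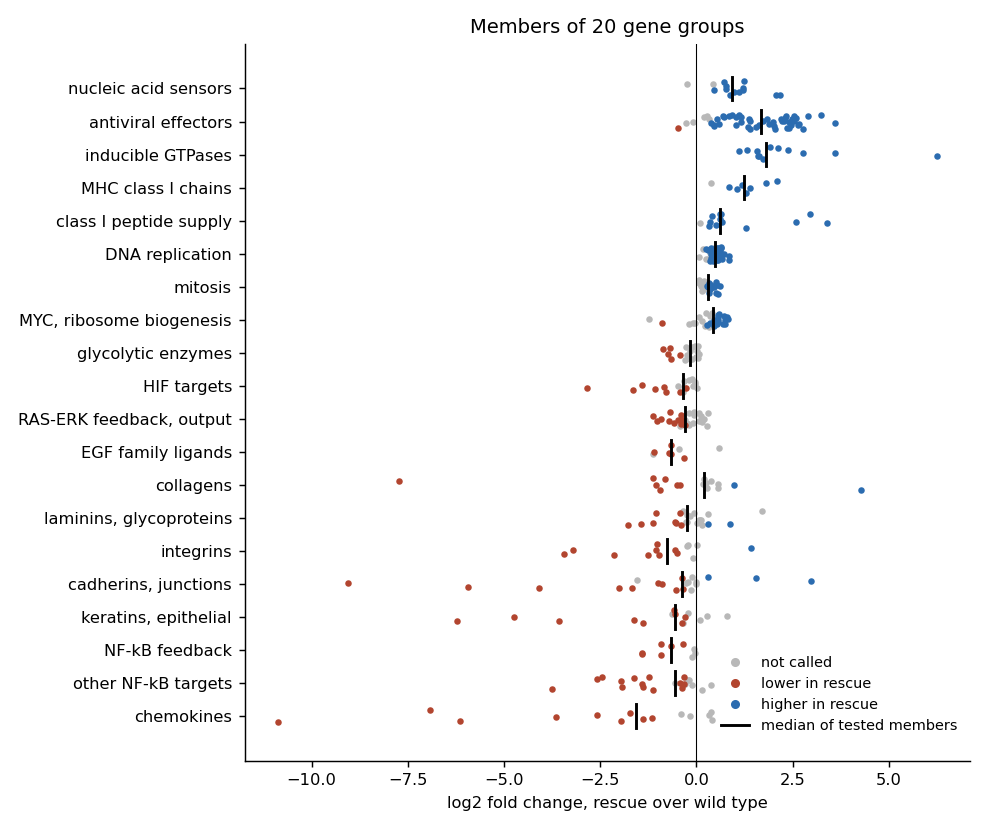
Each point is a tested gene in 1 of 20 groups, with its fitted log2 fold change, rescue over wild type, on the x axis; blue points were called higher, red points lower and grey points not called, and the black bar is the median. The interferon, class I, replication and biogenesis groups at the top lie right of 0, and the chemokine, NF-kB, integrin and epithelial groups at the bottom extend to the left.

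A set of genes went past the knockout, with both rescue libraries outside the range of the 4 wild-type and knockout libraries and a call in the same direction against each group. Only those with a mean of at least 5 CPM in wild type or rescue and an established symbol were ranked. Symbols that are a Gm number, a Rik name or a clone name were left out. The 10 ranked furthest below wild type were Cxcl5, Cp, Abcc3, Lcn2, Cxcl1, Pklr, Vcam1, Aldh3a1, Tgm2 and Pcsk6. Cp, which encodes the copper ferroxidase ceruloplasmin, had 425 and 443 CPM in wild type, 27.7 and 36.3 in the knockout and 16.4 and 18.1 in the rescue (log2 fold change -4.65, SE 0.13, adjusted p = 2.56e-09). Abcc3, an exporter of bile salts and conjugates, had 29.7 and 29.4 CPM in wild type, 6.02 and 7.22 in the knockout and 2.92 and 1.07 in the rescue (log2 fold change -3.87, SE 0.26, adjusted p = 1.75e-06), and Tgm2, a transglutaminase that cross-links matrix, 62.2 and 62.3 CPM in wild type, 21.1 and 27.0 in the knockout and 16.4 and 10.7 in the rescue. For Aldh3a1, an aldehyde dehydrogenase, the knockout was not called against wild type. It had 10.4 and 15.6 CPM in wild type, 9.44 and 16.3 in the knockout and 3.04 and 2.26 in the rescue (log2 fold change -2.30, SE 0.35, adjusted p = 0.000753). Nor was it called for Pklr, a pyruvate kinase that fell from 9.14 and 10.2 CPM to 2.92 and 0.533, or for Pcsk6, a proprotein convertase that fell from 5.94 and 7.62 to 1.78 and 1.46. The 10 furthest above wild type, within the same limits, were Irak4, Col4a4, Psmb9, Sp100, Iigp1, Usp18, Psmb8, Oas3, Trim30d and Gbp3. Apart from Irak4 and Col4a4 these are genes inducible by interferon. Sp100, a nuclear body protein, had 3.56 and 3.52 CPM in wild type, 25.2 and 21.1 in the knockout and 40.3 and 45.7 in the rescue. Col4a4, a chain of basement membrane collagen, had 0.831 and 0.879 CPM in wild type, 1.84 and 1.15 in the knockout and 4.06 and 12.7 in the rescue, so its rescue libraries differed from each other by more than the knockout did from wild type.

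Most hypoxia-inducible genes lay between the knockout and wild type, and the 2 rescue libraries differed in where. Of 45 tested genes of hypoxia and glycolysis 16 were lower than wild type and none higher by this test, while 32 were higher than the knockout. The median log2 fold change was -0.27 against wild type and 0.58 against the knockout. Leaving out the wild-type libraries in turn left 4 and 9 lower genes, and leaving out the rescue libraries in turn left 11 and 26. Over 18 targets of the hypoxia-inducible factors the median distance from the wild-type mean was -0.65 and -0.12 in the rescue libraries and -1.17 and -1.35 in the knockout libraries, on the scale of log2(CPM + 1). Car9, a carbonic anhydrase that is the sharpest marker of the response, stayed far below wild type in both, with 78.2 and 65.7 CPM in wild type, 3.84 and 5.39 in the knockout and 10.8 and 9.32 in the rescue (log2 fold change -2.83, SE 0.15, adjusted p = 2.97e-07). Angptl4, a lipase inhibitor, did so too, at 82.2 and 87.3 CPM in wild type, 17.6 and 21.3 in the knockout and 24.9 and 29.0 in the rescue. Vegfa, the angiogenic growth factor, had 688 and 566 CPM in wild type, 153 and 131 in the knockout and 258 and 447 in the rescue, and its call was lost without the first wild-type library. Bnip3, a mitophagy receptor, had 178 and 177 CPM in wild type and 143 and 206 in the rescue, on both sides of the wild-type range, and did not pass (adjusted p = 0.913).

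The enzymes of glycolysis showed the same split at smaller size. Of 19 tested 5 were lower than wild type (2 if wild-type library 1 was left out, 8 if rescue library 2 was), and 12 were higher than the knockout. Hk2, the inducible hexokinase, had 433 and 370.4 CPM in wild type, 168 and 136 in the knockout and 205 and 299 in the rescue, and lost its call without the first wild-type library. Aldoc, an aldolase, had 164 and 159 CPM in wild type, 52.6 and 63.1 in the knockout and 75.7 and 102 in the rescue (log2 fold change -0.86, SE 0.13, adjusted p = 0.000724). Slc2a1, the glucose transporter GLUT1, had 676 and 665 CPM in wild type and 509 and 681 in the rescue, so the first rescue library was below and the second just above the wild-type libraries. Ldha, the lactate dehydrogenase, had 2217 and 2279 CPM in wild type, 1854 and 1741 in the knockout and 2146 and 2421 in the rescue and did not pass against wild type (0.02, SE 0.09). The library with the higher Irak4 level was the one nearer to the knockout in these groups. With 2 rescue libraries no relation between the Irak4 level and any other gene can be tested.

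**Figure D4:**
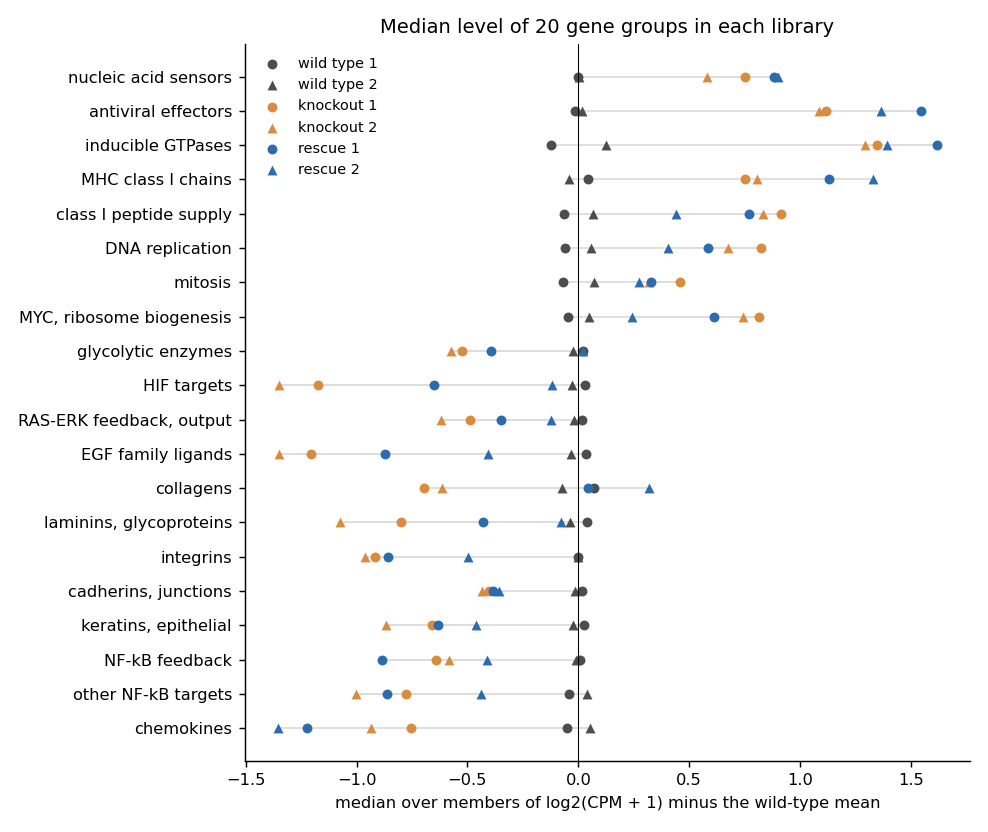
For 20 gene groups, the median over tested members of log2(CPM + 1) minus the mean of the 2 wild-type libraries is shown for each library; circles are the first and triangles the second library of wild type (grey), knockout (orange) and rescue (blue). HIF targets stand at -0.65 and -0.12 in the rescue libraries, while antiviral effectors stand at 1.55 and 1.37.

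Matrix genes differed in part and in both directions. Of 68 tested 27 fell and 6 rose, and 32 were higher than in the knockout. Leaving out the wild-type libraries in turn left 14 and 17 lower genes and 2 higher genes each, and leaving out rescue library 1 left 14 higher genes. Among collagens 7 of 16 fell and 2 rose, yet the median log2 fold change was 0.19, above 0, and -0.04 without the first wild-type library. Without the first rescue library 7 collagens were higher. Col6a1 and Col6a2, chains of the microfibrillar collagen VI, fell by 1.13 and 0.95 on the log2 scale. The fibrillar collagen gene Col11a1 went from 54 counts to 0, at least 14.9-fold lower, with 0 in the knockout. Col3a1, another fibrillar chain, rose from 0.594 and 0.195 to 9.26 and 5.86 CPM (log2 fold change 4.29, SE 0.50, adjusted p = 0.000112). Fn1, which encodes fibronectin, had 5386 and 4732 CPM in wild type, 1458 and 1447 in the knockout and 2736 and 4084 in the rescue, a call lost without either wild-type library. Lamb3, a chain of the epithelial laminin 332, had 14.6 and 14.9 CPM in wild type, 1.42 and 1.38 in the knockout and 5.58 and 7.99 in the rescue (log2 fold change -1.13, SE 0.20, adjusted p = 0.002). Thbs1, a matricellular regulator of TGF-beta, went above wild type with 163 and 148 CPM in wild type, 93.1 and 67.6 in the knockout and 216 and 349.9 in the rescue, though its call was lost without either wild-type library. Has2, the main hyaluronan synthase, had 188 and 173 CPM in wild type, 37.2 and 21.7 in the knockout and 109 and 163 in the rescue. Its second rescue library was near the wild-type libraries and the first below them (log2 fold change -0.41, SE 0.20, adjusted p = 0.161). Of 11 hyaluronan genes 4 fell (1 if either wild-type library was left out, 7 if rescue library 2 was).

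Several matrix proteases were lower. Of 18 proteases and inhibitors 8 fell, 6 by at least 2-fold, and 5 without the first wild-type library. The collagenase gene Mmp13 fell from 24.2 and 28.4 CPM to 1.65 and 1.46 and the stromelysin gene Mmp10 from 11 and 8.70 to 0.761 and 1.07. Plat, which encodes the tissue plasminogen activator, fell from 348 and 331 to 121 and 170.3 CPM, and Serpine2, an inhibitor of such proteases, from 29.3 and 31.8 to 6.09 and 9.46. Plau, the urokinase gene, had 25.4 and 26.4 CPM in wild type and 21.2 and 26.4 in the rescue and did not pass, while its receptor gene Plaur fell from 141 and 146 to 87.5 and 97.0. Timp3, an inhibitor of metalloproteases, rose from 75.5 and 66.4 to 99.0 and 148 CPM, a call lost without the second wild-type library.

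Integrin genes and part of the junction genes were lower. Of 14 integrin genes 9 fell and 1 rose, with a median log2 fold change of -0.77, and 6 fell without either wild-type library. Itga2, a chain of the collagen receptor, had 342 and 315 CPM in wild type, 49.1 and 49.4 in the knockout and 69.7 and 78.0 in the rescue (log2 fold change -2.15, SE 0.09, adjusted p = 7.58e-08), so the rescue was called above the knockout as well. Itgb3, of the vitronectin receptor, had 29.6 and 30.4 CPM in wild type, 1.09 and 1.15 in the knockout and 2.66 and 3.86 in the rescue, and Itgb6, of the epithelial receptor that activates TGF-beta, 5.34 and 6.16 CPM in wild type, 0.418 and 0.458 in the knockout and 0.38 and 0.666 in the rescue. The one that rose was Itgb7, a chain known from lymphocytes, from 2.61 and 2.44 to 6.97 and 6.53 CPM. Cadherins and junction genes fell in 10 of 20 and rose in 3. Cdh1, which encodes E-cadherin, had 363 and 393 CPM in wild type, 176 and 233 in the knockout and 141 and 97.6 in the rescue, below the knockout too (log2 fold changes of -1.66 and -0.78). Celsr1, a cadherin of planar cell polarity, had 60.6 and 52.8 CPM in wild type and 0.761 and 1.07 in the rescue (log2 fold change -5.94, SE 0.21, adjusted p = 1.94e-08). Cldn6, a claudin of immature epithelium, fell from 15.8 and 18 to 0.761 and 1.20 CPM. Dsg2, a desmosomal cadherin, went from 137 counts to 0, at least 37.7-fold lower, with 1 in the knockout. Cdh5, a cadherin known from endothelium, rose from 2.97 and 3.62 to 37.8 and 14.6 CPM, where the knockout had 15.9 and 30.5. The endothelial marker Kdr fell from 1.54 and 1.66 to 0 and 0.133 CPM, where the knockout had 0.0836 and 0.115.

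Part of the keratins and epithelial regulators were lower, and mesenchymal factors were called at shares near those over all genes. Of 15 keratins and epithelial regulators 9 fell and none rose, and 6 fell without either wild-type library. Of the ETS factors of epithelial cells, Ehf fell from 49.8 and 55.4 CPM to 4.31 and 4.53 and Elf3 from 35.6 and 34.1 to 11.9 and 14.8, with log2 fold changes of -3.57 (SE 0.21) and -1.38 (SE 0.14). Prom1, a marker of epithelial progenitors, fell from 24.7 and 25.8 to 0.507 and 0.133 CPM, and the mucin gene Muc1 from 15.6 and 16.7 to 5.45 and 5.06. Krt19, a ductal keratin, had 2317 and 2197 CPM in wild type, 1093 and 1235 in the knockout and 1293 and 1767 in the rescue, a call lost without either wild-type library. Of 11 mesenchymal genes Zeb1 fell and Acta2 rose, and both calls were lost without either wild-type library, that of Acta2 without any 1 of the 6 libraries. Vim, the mesenchymal filament, had 5077 and 5105 CPM in wild type and 4841 and 5703 in the rescue (log2 fold change 0.05, SE 0.10, adjusted p = 0.768). Among the factors of pancreatic identity Gata4 rose and Gata6 fell, and without the first wild-type library neither was called. Without the second Gata4 still was and Gata6 was not, nor was Gata6 without the first rescue library. Sox9, the ductal factor, did not pass at 305 and 248 CPM in wild type and 214 and 273 in the rescue.

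In growth factor signalling, part of the ligand and feedback genes were called lower. Of 8 ligand genes, which are of the EGF family but for Fgf2, 5 fell, 2 without either wild-type library. Tgfa had 128 and 114 CPM in wild type and 65.8 and 87.5 in the rescue, and Nrg1, the ERBB3 ligand, 14.5 and 17.2 CPM in wild type and 8.12 and 6.79 in the rescue. Hbegf, with 328 and 298 CPM in wild type, 95.8 and 81.5 in the knockout and 180.5 and 275 in the rescue, passed against the knockout only. Egfr, the receptor gene, fell from 121 and 117 to 41.1 and 52.1 CPM (log2 fold change -1.36, SE 0.11, adjusted p = 6.76e-06), above the knockout at 26 and 27.8. Of 17 core genes from receptor to ERK only Egfr and Grb2 fell and Map2k2 rose, and the call of Grb2 was lost without the first wild-type or the first rescue library and that of Map2k2 without any library but the second rescue library. Feedback and output genes of ERK fell in 11 of 29 (3 and 6 with the wild-type libraries left out in turn). Spry1, an inhibitor of the pathway, fell from 31.1 and 28.3 to 16.9 and 14.6 CPM, where the knockout had 19.4 and 21.9. Dusp6, a phosphatase of ERK, had 118 and 121 CPM in wild type and 123 and 164 in the rescue and Etv4 85.0 and 86.3 CPM in wild type and 86.2 and 78.6 in the rescue, and neither passed.

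Developmental pathways differed at single genes. Of 22 WNT genes 9 fell and none rose (4 fell with wild-type library 1 left out). Of the ligand genes, Wnt5a fell from 72.0 and 61.5 CPM to 25.1 and 30.6 and Wnt7b from 292 and 267 to 128 and 173. Axin2, the feedback target of beta-catenin, fell from 2.85 and 3.62 to 0.761 and 0.133 CPM. NOTCH genes fell in 5 of 10 (3 if wild-type library 1 was left out, 8 if rescue library 2 was). Notch2 went from 509.6 and 454 to 297 and 296 CPM and its target gene Hes1 from 105 and 94.6 to 57.2 and 69.4. Of 14 genes of the YAP pathway Tead2 and Birc5 rose and Wwtr1, Tead3, Tead4 and Crim1 fell, but with the wild-type libraries left out in turn 0 and 1 of the falls were called, with rescue library 1 left out 2 were, and in each of these 3 cases Birc5 was not called. The YAP target Ccn1 had 705 and 667 CPM in wild type and 471 and 577 in the rescue and fell, a call lost without either wild-type library or the first rescue library. Ankrd1, another target, stood at 672 and 596 CPM in wild type, 241 and 219 in the knockout and 462 and 654 in the rescue and Ccn2 at 702 and 645 CPM in wild type, 306 and 242 in the knockout and 517 and 854 in the rescue, and neither passed against wild type. Of 31 TGF-beta and BMP genes 7 fell and 2 rose. The ligand gene Bmp4 fell from 17.9 and 14.2 to 1.78 and 3.20 CPM, its target Id2 from 42.7 and 45.4 to 11.5 and 14 and the signal carrier Smad3 from 249.8 and 246 to 159.7 and 176. Grem1, an antagonist of BMPs, had 19.2 and 20.5 CPM in wild type, 13.8 and 16.3 in the knockout and 4.57 and 6.39 in the rescue, so it was lowest in the rescue (log2 fold change -1.45, SE 0.20, adjusted p = 0.00201 against the knockout). Id3, a target of BMPs, had 23 and 23.4 CPM in wild type, 86.8 and 104 in the knockout and 54.0 and 36.9 in the rescue.

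Genes of DNA replication were higher in the rescue by small steps. Of 39 tested 30 rose and none fell, none by 2-fold, with a median log2 fold change of 0.49 (0.75 in the knockout). Against the knockout 11 of them were lower. The count rested on the first wild-type library, without which 7 were called. Mcm5, a subunit of the replicative helicase, had 107 and 137 CPM in wild type, 341 and 306 in the knockout and 238 and 203 in the rescue. Its partner Mcm2 had 114 and 129.9 CPM in wild type, 262 and 247 in the knockout and 207 and 176 in the rescue, and in both genes the rescue libraries lay between the other groups. Pole, the leading-strand polymerase, had 97.0 and 96.6 CPM in wild type and 151 and 150.0 in the rescue (log2 fold change 0.64, SE 0.08, adjusted p = 0.000255). Ccne1, the cyclin of entry into S phase, rose from 7.01 and 9.28 to 20.7 and 16.4 CPM. Of 31 mitosis genes 16 rose (4 and 8 with the wild-type libraries left out in turn), among them the kinesin gene Kif2c (61.6 and 66.5 to 100.3 and 95.8 CPM). Top2a and Cdk1 did not pass, with log2 fold changes of 0.06 and 0.20. Cdkn1a, which encodes the cell cycle inhibitor p21, had 208 and 176 CPM in wild type, 35.3 and 19.1 in the knockout and 54.9 and 111 in the rescue, a call lost without the first wild-type library. Cdk6, a kinase of G1, fell from 97.7 and 83.3 to 56.1 and 58.2 CPM.

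In a list of ribosome biogenesis genes, factors of the MYC network and some MYC targets 18 of 31 tested rose and 1 fell, Mxd1, an antagonist of MYC, whose call was lost without the first wild-type library. With the wild-type libraries left out in turn 4 and 8 rose, and with rescue library 1 left out 8 did. In the rescue libraries the group's median lay 0.61 and 0.24 above the wild-type mean on the scale of log2(CPM + 1), so the second library was the nearer to wild type here too. Of the nucleolar protein genes, Nolc1 rose from 87.5 and 91.1 CPM to 174 and 127 and Ncl from 749 and 676 to 1127 and 987. Myc itself, the factor that drives such genes, had 231 and 234 CPM in wild type, 152 and 128 in the knockout and 201 and 233 in the rescue. It was called above the knockout (0.63, adjusted p = 0.00398) and not against wild type (-0.10, adjusted p = 0.534). Of the aminoacyl-tRNA synthetases 1 of 18 rose and 1 fell. Among 24 genes of ATF4 and the unfolded protein response 7 fell (4 and 3 with the wild-type libraries left out in turn, 14 if rescue library 2 was). Slc7a11, the cystine transporter, fell from 96.4 and 104 to 34.1 and 43.8 CPM (log2 fold change -1.37, SE 0.21, adjusted p = 0.000745), and Ern1, the sensor IRE1, from 171 and 166 to 99.3 and 112.

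Regulators of sterol and of fatty acid synthesis were called in opposite directions. Srebf2, the master factor of cholesterol synthesis, fell from 799 and 784 to 510.4 and 508 CPM (log2 fold change -0.64, SE 0.08, adjusted p = 0.000225), and its targets Sqle and Hmgcs1 fell by 0.65 and 0.66 on the log2 scale. Srebf1, the factor of lipogenesis, was higher at 239 and 245 CPM in wild type and 317 and 302 in the rescue, with Acaca, its target that makes malonyl-CoA, at 39.1 and 40.3 CPM in wild type and 70.3 and 59.3 in the rescue and Fasn, the fatty acid synthase, at 473 and 483 CPM in wild type and 805 and 608 in the rescue. The calls of Srebf1 and Fasn were lost without either wild-type library. Over the 26 genes of both routes 7 fell and 3 rose, against 4 and 1 with either wild-type library left out and 13 lower with rescue library 1 left out. Among genes of antioxidants and iron Cp, given above, fell furthest, and Slc11a2, an iron importer, fell from 76.8 and 83.1 to 52.5 and 47.5 CPM. Of 18 lysosomal genes 2 rose and 2 fell (11.11% each, near the shares over all genes). Gpnmb, which encodes a lysosomal membrane glycoprotein, rose from 6.29 and 8.79 CPM to 162 and 106, between wild type and the knockout (246 and 249). Gusb, the other gene that rose, did so by 0.41 on the log2 scale, and was called in only 7 of 14 alternatives. Its call was lost in DESeq2 and without the first wild-type library, the first rescue library or either knockout library. Ctsh, a cathepsin, and Npc1, the lysosomal cholesterol transporter, fell by 1.29 and 0.87 on the log2 scale.

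Genes of cell death were lower on both the inhibiting and the promoting side. Of 25 tested 13 fell and 2 rose, and 6 fell without either wild-type library. Pmaip1, which encodes the BH3-only killer NOXA, had 21.5 and 22.5 CPM in wild type, 2.09 and 2.52 in the knockout and 4.69 and 4.53 in the rescue (log2 fold change -2.25, SE 0.18, adjusted p = 5.93e-06). Bcl2l11, which encodes BIM of the same class, fell from 71.1 and 59.1 to 28.4 and 42.6 CPM. Gsdmd, the pore protein of pyroptosis, fell from 156 and 165 to 92.7 and 104 CPM, below the knockout at 127 and 137. Tnfrsf1b, a TNF receptor, fell by 0.63 on the log2 scale and the inhibitor gene Birc3 as given above. Ripk1 and Mlkl, genes of necroptosis, were the 2 that rose, by 0.35 and 0.32 on the log2 scale. Both calls were lost without either wild-type library. That of Ripk1 was also lost without the first rescue library and that of Mlkl without the second.

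Axon guidance genes, channels and S100 genes held several of the widest differences. Of 27 guidance genes 11 fell and 5 rose, with 6 lower without the first wild-type library, 7 without the second, and 2 higher without either. Robo1, the receptor of SLIT proteins, rose from 10.2 and 10.7 to 39.7 and 42.8 CPM (log2 fold change 1.97, SE 0.12, adjusted p = 8.56e-07). Sema4a, a semaphorin, had 18.2 and 20.4 CPM in wild type, 9.61 and 12.9 in the knockout and 6.59 and 4.79 in the rescue. Kcnmb1, a regulatory subunit of the large-conductance potassium channel, went from 1 count over the wild-type libraries to 299 in the rescue, a ratio of 362 (95% counting interval 64.5 to 14360.0). The knockout already had 424 counts of it. Kcnn3, a small-conductance channel, fell from 46.4 and 40.5 to 0.761 and 3.46 CPM, where the knockout had 0.418 and 0.115. Kcnq1, a voltage-gated channel, went from 99 counts to 0, at least 27.2-fold lower, with 0 in the knockout. It overlaps Kcnq1ot1 on the opposite strand. S100a6, a calcium-binding protein, fell from 2425 and 2451 to 1631 and 1417 CPM.

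Outside the lists, several genes had 0 or few counts in 1 group. The knockout values, which have the same wild-type reference, are given beside them. Maged2, of the MAGE family, fell from 216 counts to 0 (at least 59.4-fold lower) and had none in the knockout either. Ccdc184 fell from 98 counts to 0 (at least 27-fold lower), with 3 in the knockout. Gc, which encodes the vitamin D binding protein, went from 101 counts to 1, a ratio of 83.3 (95% counting interval 14.6 to 3324), and Hhip, an inhibitor of hedgehog ligands, from 100 counts to 1. Gc and Hhip each had 1 count in the knockout. Ggt5, a gamma-glutamyl transferase, went the other way, from 0 counts to 91 in the rescue (at least 36.8-fold higher) and 107 in the knockout. BC035947 went from 1 count to 638 and was also at 717 in the knockout, and it overlaps Mogat1 on the opposite strand. Mfap3l, a membrane protein, had 12 and 11.1 CPM in wild type, 75.0 and 76.1 in the knockout and 83.6 and 77.8 in the rescue (log2 fold change 2.80, SE 0.11, adjusted p = 2.64e-08). Enpp2, which encodes the lysophospholipase autotaxin, had 31.6 and 31.7 CPM in wild type, 2.01 and 2.29 in the knockout and 1.14 and 1.6 in the rescue (log2 fold change -4.52, SE 0.21, adjusted p = 1.03e-07), and Stra6, the receptor of retinol-binding protein, 61.6 and 58.4 CPM in wild type, 2.67 and 2.41 in the knockout and 4.18 and 5.73 in the rescue (log2 fold change -3.60, SE 0.16, adjusted p = 7.84e-08). In each of these the rescue libraries were nearer to the knockout than to wild type, and Stra6 was called above the knockout.

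The rescue libraries differed from each other at more genes than the libraries of the other groups. Among genes with at least 20 CPM in either library, 7 of 7860 were at least 2-fold higher in rescue library 1 and 17 in rescue library 2, against 1 and 2 of 7850 in the knockout and none of 7717 in wild type. Pgf, the placental growth factor, had 7.36 and 31.0 CPM in the rescue, 80.6 and 63.1 in wild type and 3.51 and 3.55 in the knockout. Fgfr1, a receptor of fibroblast growth factors, had 13.4 and 49.0 CPM in the rescue against 23.2 and 22.9 in wild type, and Dlc1, a regulator of small GTPases, 10.5 and 33.2 against 27.9 and 24.1. Chd5 and Acap1 were also higher in the second. Higher in the first were Irak4, Cdh5, Hist2h4, Plekhh2 and Myo15b, with Plekhh2 at 178 and 67.7 CPM in the rescue and already uneven in wild type at 110.3 and 56.5. Of these genes Irak4, Cdh5, Hist2h4 and Pgf were called against wild type, Pgf not without the first wild-type library.

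The share of called genes varied between chromosomes. On chromosome 15, which carries Irak4, 139 of 491 tested genes were lower (28.3%) and 16 higher (3.26%), with a median log2 fold change of -0.21. On chromosome 3, 140 of 625 were lower (22.4%) and the median was -0.14. On chromosome 8, 136 of 698 were higher (19.5%) and 50 lower (7.16%), with a median of 0.12. The knockout, against the same wild-type libraries, had medians of -0.19, -0.13 and 0.14 on these 3 chromosomes. Enpp2 and Celsr1 lie on chromosome 15, Cp and Vcam1 on chromosome 3, and Bst2 and Mfap3l on chromosome 8. The part of a shift over a whole chromosome in the values of its genes was not tested.

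**Figure D5:**
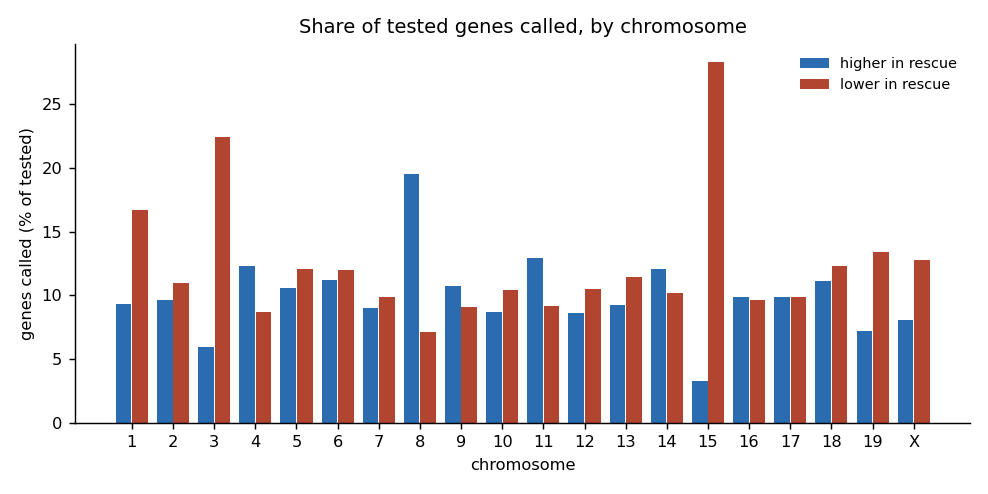
Share of tested genes (%) called higher (blue bars) or lower (red bars) in the rescue than in wild type, for chromosomes 1 to 19 and X; bars start at 0. Chromosome 15 has 28.3% of its genes lower and 3.26% higher, and chromosome 8 has 19.5% higher.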

How the data were processed

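RNA-seq of mRNA was made from 6 KP2 libraries, 2 each of wild type, Irak4 knockout and knockout with rescue, grouped by their titles. The deposited gene counts were made by the authors from the GRCm38 mouse genome, and the submitters' processing notes name STAR 2.0.4b, Subread and featureCounts 1.45 without their settings. The strand setting is not given in the sources used here. The deposited files, per the file headers, also hold CPM and RPKM values. On checking, CPM was the count scaled to the file's total and RPKM the CPM scaled to gene length, and both columns served only for that check. Gene symbols came from the GENCODE annotation given with the reference, for 40254 of 41388 genes.

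Counts of all 6 libraries were fitted together in edgeR 4.0.16 (R 4.3.3, limma 3.58.1) with TMM scaling, genes kept by filterByExpr (count minimum 10, total minimum 15), the quasi-likelihood test for rescue minus wild type, and Benjamini-Hochberg adjustment over 12339 genes; calls had an adjusted p under 0.05. The other 29049 genes were too low to test. The spread between 2 libraries per group, with 3 residual degrees of freedom, limits precision. The test was tried on simulated data before use, where 67.2% of genes changed 1.5-fold were recovered and 3.9% of calls were false. The simulation gave all groups the same spread and changed far fewer genes than were called here. It therefore does not measure errors under the wider spread of the rescue libraries.

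The gene lists and the members named were chosen with earlier results of these data known. Genes were named by a rule: genes marked for description in the lists, up to 4 called members per role group and direction with the smallest adjusted p, the widest and the most certain changes over all genes, genes beyond both other groups, and genes that differed most between the rescue libraries. The widest changes and the genes beyond both groups were limited to established symbols and a wild-type or rescue mean of at least 5 CPM. Ccl9, Kdr, Rel, Rela, H2-M3 and Canx fall outside the naming rule and were named after their values were seen. Folds against a group at 0 counts use 3 counts over the group as a floor. Ratios against groups with 1 to 3 counts have intervals, at the 95% level, that cover counting error only. Promoters came from RefSeq's annotation of GRCm38.p6. Some named genes have an exon overlap with an opposite-strand gene. These include Cp, Irf7, Myd88, Tap1, Tgm2, Pklr, Fn1, Thbs1, Timp3 and Srebf1, and reads from both strands cannot be told apart there. DESeq2 1.42.0, other scalings and filters, and leaving out each library were tried as alternatives. Listed symbols that matched no tested gene are not analysed here, and a few listed genes are not reported here.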

Additional observations from a re-analysis of the deposited data

How the results depend on the processing

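DESeq2 gave 693 higher and 1022 lower genes and 10 lower hypoxia and glycolysis genes. Leaving out 1 library at a time gave 417 to 1699 higher genes, 691 to 1953 lower genes, 10 to 16 lower cytokine genes, 4 to 26 lower hypoxia and glycolysis genes, 14 to 36 lower matrix genes and 12 to 56 higher cell cycle genes. A stricter filter on low counts left 257 genes at least 2-fold lower. Upper-quartile scaling gave 1373 higher against 1378 lower. For 4 genes not called in the main fit, the direction depended on which rescue library was kept. Without the second rescue library the log2 fold changes were negative, in Acap1 (-0.93), Ccn2 (-0.38), Fgfr1 (-0.77) and Tnc (-0.80). Without the first they were positive. The range over the alternatives ran up to 0.64, 0.34, 1.08 and 0.59. In Fgfr1 and Ccn2, whose levels are given above, the rescue libraries lay on opposite sides of the wild-type libraries. Why the rescue libraries differed was not tested. Of the 310 named genes called, 99 lost their call without the first wild-type library, 81 without the second, 53 in DESeq2 and 43 without the first rescue library.

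With the replicate number as a block, 941 genes were higher and 1216 lower, and 29 of the named calls were lost. The numbers only name the libraries, and the deviations of same-numbered wild-type and rescue libraries correlated at -0.153. Crossing the pairs, a choice made after seeing the data, gave 1535 and 1779.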

Other observations

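Most members of the large gene families chosen by their symbols were not called. Of 78 tested cytosolic ribosomal protein genes 4 were higher and 2 lower in the rescue than in wild type, and of 77 subunit genes of oxidative phosphorylation 2 were higher and 3 lower. Of 34 constitutive proteasome subunit genes 5 rose and 1 fell, and of 12 histone genes 2 rose and none fell by this test (median log2 fold change 0.63). Zinc finger genes, a family of 298 tested, gave 12 higher and 7 lower, and solute carrier genes, the transporters of the membrane, gave 13 higher and 31 lower of 198. In the protocadherin cluster 1 of 10 tested genes rose (median log2 fold change 0.61). The shares over all genes tested were 10.2% higher and 12% lower.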
